A study of Mus musculus with 13 samples.

Results

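Synaptic and glutamatergic genes are the genes that build excitatory and other synapses of the brain, here 38 mouse genes found by symbol among the 55416 Ensembl identifiers of a gene count table. They fall into 4 roles: 8 genes of the postsynaptic scaffold, 9 glutamate receptor subunits and CaMKII kinases, 5 synaptic adhesion genes and 16 presynaptic genes. The table holds 13 mRNA libraries of mouse brain tissue in 4 groups, which the labels give as flox normoxia (n = 3), KO normoxia (n = 3), flox hypoxia (n = 3) and KO hypoxia (n = 4). Flox libraries have the genotype Pdcd10fl/fl, with both copies of Pdcd10 (also called CCM3) flanked by loxP sites and no Cre recombinase named. KO libraries have the genotype Slco1c1-iCreERT2;Pdcd10fl/fl, so the floxed allele is shared by all 4 groups and the genotypes differ in the Cre. Slco1c1-iCreERT2 is a Cre that tamoxifen switches on and that the Slco1c1 promoter directs to brain endothelium, so neurons are not the cells in which the gene was meant to be lost. According to the design text, KO pups received 50 µg of 4-hydroxy-tamoxifen into the stomach on postnatal day 1. That text leaves unclear whether the flox littermates were injected, and says that Cre carriers without injection also served as controls. Hypoxia was 12% oxygen for 7 days and normoxia was 21% oxygen. All animals are labelled male, and their age at harvest is not stated in the labels. The study compared the genotypes in each oxygen condition and the oxygen conditions in each genotype.

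At an excitatory synapse, vesicles filled with glutamate fuse with the presynaptic membrane through SNARE proteins when calcium enters, at a site marked by active zone proteins. Glutamate then opens AMPA and NMDA receptors on the postsynaptic side, which a dense scaffold holds in place and which CaMKII, a calcium-activated kinase, modulates. Neurexins and neuroligins bridge the cleft between both sides.

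Total counts were 42090437 to 71216636 per library. The lowest count of any of the 38 genes in any library was 1642 (Slc17a6), so no member was near 0 counts. Pdcd10 itself lay between 14.7 and 18.1 CPM (the usual depth-normalised count, here with TMM library factors) in all 13 libraries. In normoxia KO and flox libraries overlapped, at a log2 fold change of -0.02 ± 0.07 (SE) with an adjusted p of 0.962 (edgeR). In hypoxia every KO library lay below every flox library, but the difference did not pass, at -0.09 ± 0.07 with an adjusted p of 0.47 (edgeR). Bulk tissue holds Pdcd10 of all cell types, so these values do not check the endothelial deletion. Although all animals are labelled male, 4 libraries (1 flox normoxia, 1 KO normoxia, 2 KO hypoxia and 0 flox hypoxia) held Xist RNA and few counts of Y-linked genes. Changes in the calls under a sex term are therefore given below. The labels name no animals, so a p-value here reflects only how far libraries of a group spread. In bulk tissue, fewer cells of a type and less RNA per cell cannot be told apart.

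Promoter sequence was read for the members whose data the results turn on. RefSeq's table for GRCm38.p6, an earlier build than the GRCm39 named for the counts, had an entry for 25 of the 38 genes with 34 start sites. The 250 bases before the start are printed 5′ to 3′ for Rims1 and Unc13a, which fell in KO hypoxia under every processing tried and have an entry (Shank1, the other such gene, had none), and for Syn1, which fell in KO between the oxygen conditions. They lie on the minus strand at chr1:22806159-22806408, chr8:71671758-71672007 and chrX:20920919-20921168. Capitals mark matches to the motifs searched on both strands, the GC box (GGGCGG), the left part of the RE1 element (TTCAGCACC), the cyclic AMP response element (TGACGTCA) and the TATA box (TATAAA).
Rims1: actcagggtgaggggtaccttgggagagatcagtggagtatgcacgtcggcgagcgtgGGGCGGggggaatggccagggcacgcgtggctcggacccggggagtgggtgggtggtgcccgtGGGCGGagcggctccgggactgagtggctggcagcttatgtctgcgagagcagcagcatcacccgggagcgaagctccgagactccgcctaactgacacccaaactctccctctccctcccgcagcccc
Unc13a: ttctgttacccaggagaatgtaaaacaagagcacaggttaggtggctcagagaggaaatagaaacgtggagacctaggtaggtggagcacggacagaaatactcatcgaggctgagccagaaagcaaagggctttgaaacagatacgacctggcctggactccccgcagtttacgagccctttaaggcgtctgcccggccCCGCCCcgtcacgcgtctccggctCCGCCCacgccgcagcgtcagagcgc
Syn1: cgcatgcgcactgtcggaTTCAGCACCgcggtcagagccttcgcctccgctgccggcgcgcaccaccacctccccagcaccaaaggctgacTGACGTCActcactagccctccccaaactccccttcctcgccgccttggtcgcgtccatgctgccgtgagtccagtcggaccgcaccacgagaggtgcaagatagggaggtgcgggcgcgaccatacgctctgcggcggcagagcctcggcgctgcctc
Rims1 and Unc13a each carry 2 GC boxes, those of Unc13a on the opposite strand, and Syn1 carries the RE1 part and the cyclic AMP element. RE1 is the DNA element bound by the repressor REST, and Syn1 is a textbook gene with such an element. The RE1 part was found in 2 of the 34 windows (5.88%; Nlgn1 and Syn1), against 0.301% of all 32851 windows. The GC box was in 16 windows (47.1%, against 32.7% of all), the cyclic AMP element in 1 (2.94%, against 1.55%) and the TATA box in 0 (against 12.4%). The median GC content of the members' windows was 58.4%, against 52.4% over all windows. A match describes these letters and shows neither binding nor use.

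The 38 genes were expressed over a wide range in every library. On the deposited per-length scale (RPKM, CPM without the TMM factors, divided by gene length in kilobases), Camk2a, the alpha subunit of CaMKII, was highest with a mean of 432 over all libraries. The vesicle SNARE gene Vamp2 followed at 309, the plasma membrane SNARE gene Snap25 at 299, the fusion clamp gene Cplx2 at 297 and Slc17a7, the vesicular glutamate transporter VGLUT1 of cortex and hippocampus, at 293. Neighbours in that order overlapped: Vamp2 ranged from 287 to 323 RPKM over the libraries, Snap25 from 260 to 328, Cplx2 from 278 to 323 and Slc17a7 from 279 to 312. Among scaffold genes Dlgap3 was highest at 90.1 RPKM and Dlgap2 lowest at 11.0 RPKM, and among adhesion genes Nlgn2 was highest at 62.4 RPKM. Lowest of all were Slc17a6, the VGLUT2 transporter of thalamus and brainstem, at 6.80 RPKM, Nlgn3 at 6.56 and Nlgn1 at 6.43, whose ranges also overlapped. In the plot of levels by group, the 4 groups of a gene lie close together, and differences between groups are small beside those between genes.

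**Figure D1:**
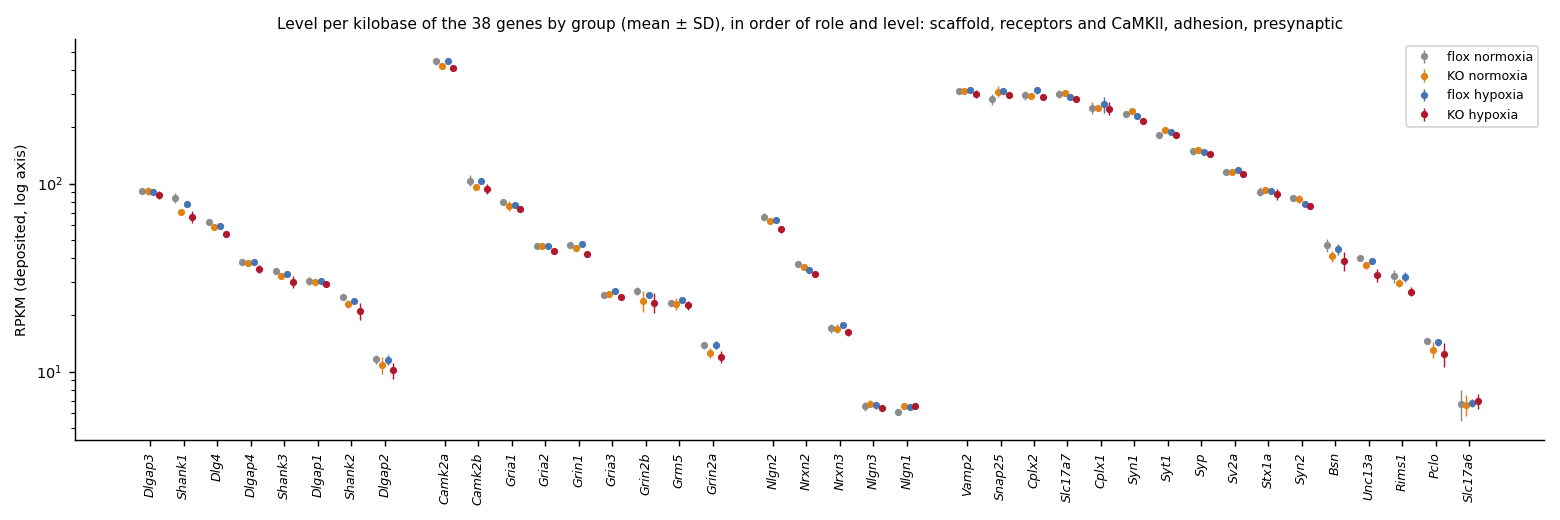
Mean ± SD of the deposited RPKM (log axis) of each of the 38 genes in flox normoxia (n = 3), KO normoxia (n = 3), flox hypoxia (n = 3) and KO hypoxia (n = 4), ordered by role and then by level. Camk2a is highest at a mean of 432 and Nlgn1 lowest at 6.43, and the differences between groups are small beside the differences between genes.

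In hypoxia, 13 of the 38 genes were lower in KO than in flox at an adjusted p below 0.05 (edgeR, Benjamini-Hochberg over 22507 genes) and 0 were higher, against 2.28% of all tested genes called lower and 6.78% called higher. Among the 5666 genes at least as abundant as the least abundant member, 6.76% were called lower and 4.50% higher. The fall reached all 4 roles: 4 of 8 scaffold genes, 5 of 9 receptor and CaMKII genes, 1 of 5 adhesion genes and 3 of 16 presynaptic genes. The falls were small, from 9.60% (Gria3) to 18.2% (Rims1). Over all 38 genes the median log2 fold change was -0.13, with a range from -0.29 to 0.01. The median was -0.01 over all genes and -0.05 over the abundant ones. Of the 38, 37 lay below 0, against 52.1% of all genes and 70.8% of the abundant ones, and 26 had every KO library below every flox library, against 9.37% and 22.4%. At an unadjusted p below 0.05, 26 were lower and 0 higher, against 9.97% and 12.7% of all genes.

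**Figure D2:**
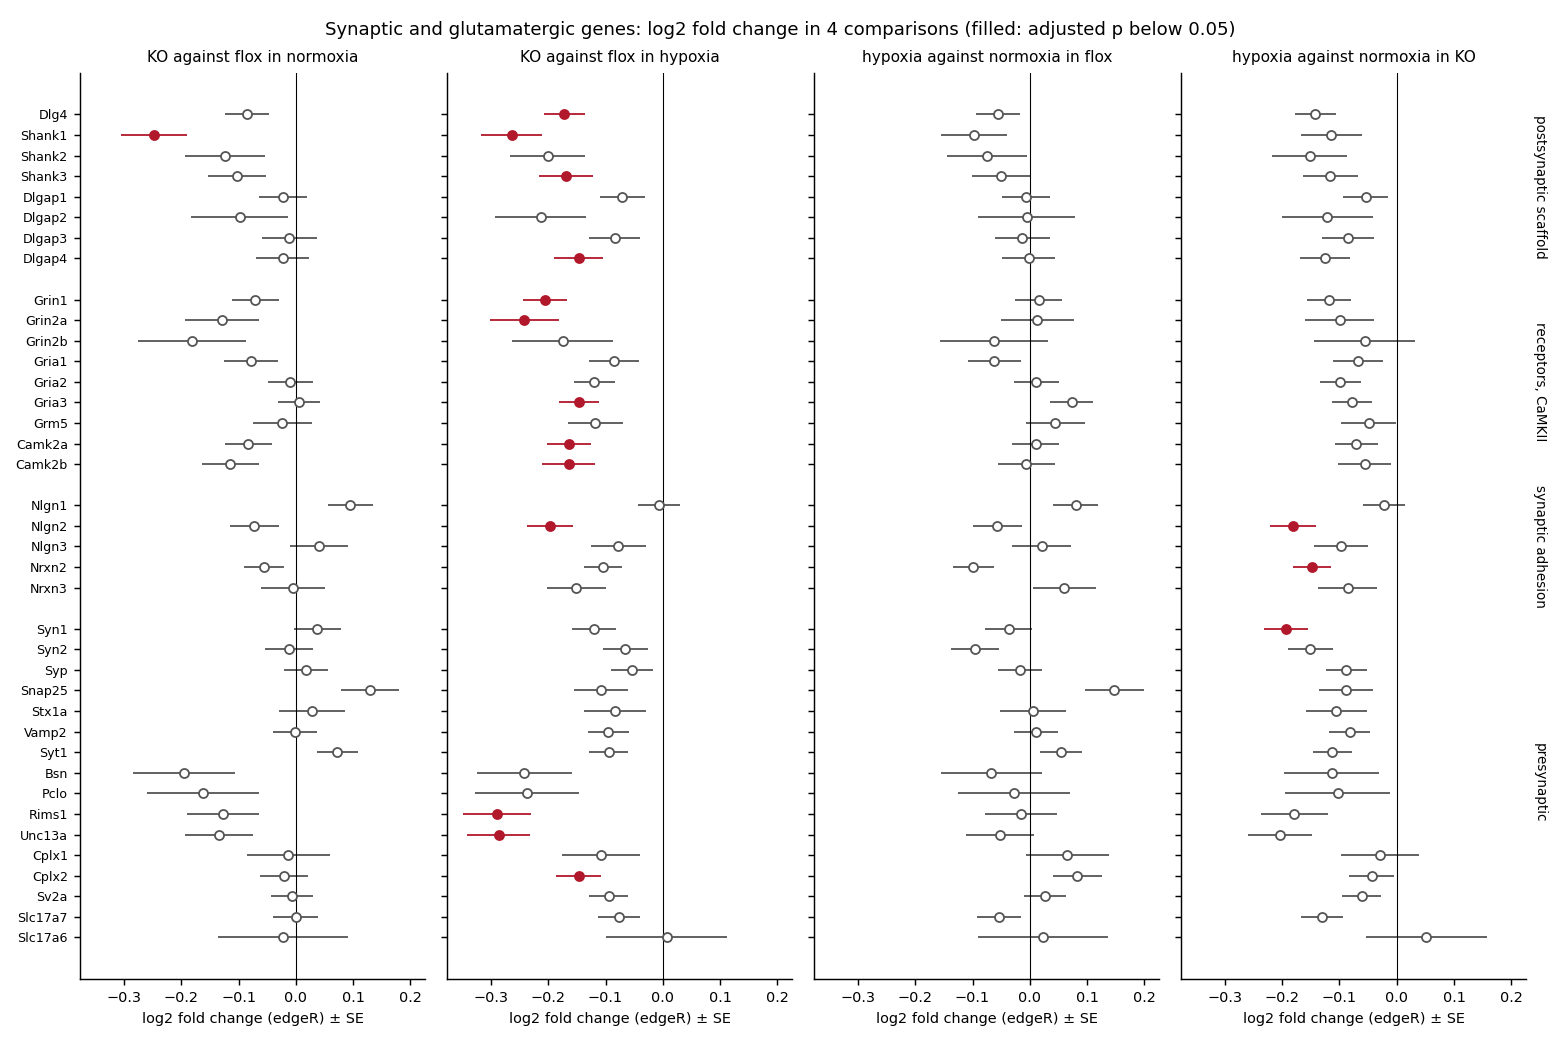
Log2 fold change ± SE (edgeR) of each of the 38 genes, grouped by role from top to bottom, in 4 comparisons that share libraries: the 2 genotypes in normoxia, the 2 genotypes in hypoxia, and the 2 oxygen conditions in flox and then in KO (panel titles name the group and its reference). Filled red points have an adjusted p below 0.05: 1, 13, 0 and 3 genes, all below 0.

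Of the scaffold genes, 4 of 8 were lower in KO hypoxia. Shank1, a scaffold protein that links receptor complexes to the actin skeleton, lay at 809, 823 and 861 CPM in the 3 flox hypoxia libraries and at 660, 751, 713 and 644 CPM in the 4 KO hypoxia libraries. The groups did not overlap, and the log2 fold change was -0.26 ± 0.05 (SE), with an adjusted p of 0.00504 (edgeR). Dlg4, a core protein of the postsynaptic density that anchors NMDA receptors, lay at 801, 818 and 781 CPM in flox and at 688, 725, 725 and 702 CPM in KO. Again every KO library was below every flox library, at -0.17 ± 0.04 with an adjusted p of 0.00602 (edgeR). Shank3, a scaffold gene of the same family, lay at 305, 300 and 322 CPM in flox and at 256, 283, 297 and 263 CPM in KO, so that the highest KO library came within a few CPM of the lowest flox library. Its log2 fold change was -0.17 ± 0.05, with an adjusted p of 0.0358 (edgeR). Dlgap4, which binds Dlg4 and the Shank proteins, lay at 322, 316 and 335 CPM in flox and at 286, 302, 306 and 278 CPM in KO, with a gap between the groups and a log2 fold change of -0.15 ± 0.04 (adjusted p 0.0439, edgeR). The other 4 scaffold genes were below 0 and not called. Dlgap2 had the largest difference of these (-0.21 ± 0.08, adjusted p 0.112, edgeR), with 66.6, 74.3 and 73.7 CPM in flox and 60.7, 68.4, 63.9 and 53.6 CPM in KO, and 1 KO library within the flox range.

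Among the NMDA receptor genes, the shared subunit and 1 of its partner subunits fell. Grin1, the subunit that every NMDA receptor needs, lay at 460, 481 and 462 CPM in flox hypoxia and at 401, 412, 419 and 390 CPM in KO hypoxia. The groups were well apart, at a log2 fold change of -0.21 ± 0.04 and an adjusted p of 0.00264 (edgeR), the lowest adjusted p of the 38. Grin2a, the subunit that gains weight as forebrain synapses mature, lay at 241, 247 and 264 CPM in flox and at 218, 225, 216 and 189 CPM in KO. No KO library reached the flox range, and the log2 fold change was -0.24 ± 0.06 (adjusted p 0.0179, edgeR). Grin2b, the subunit that dominates early in development, was not called: it lay at 636, 664 and 631 CPM in flox and at 625, 625, 563 and 469 CPM in KO (-0.17 ± 0.09, adjusted p 0.258, edgeR). All 4 KO libraries were below the flox libraries, but 2 by little and replicate 4 by much. The log2 ratio of Grin2a to Grin2b was -1.36 ± 0.09 (SD, n = 3) in flox hypoxia and -1.42 ± 0.09 (SD, n = 4) in KO hypoxia, a difference within the spread.

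Of the AMPA receptor subunits, which carry most fast excitatory current, Gria3 fell. It lay at 269, 276 and 259 CPM in flox hypoxia and at 242, 250, 239 and 238 CPM in KO hypoxia. KO libraries sat below flox libraries without overlap, at -0.15 ± 0.03 (adjusted p 0.0147, edgeR). Gria2, the subunit that blocks calcium entry, had an adjusted p of 0.0523 at -0.12 ± 0.04 (edgeR), just above the threshold, and Gria1 and the metabotropic receptor gene Grm5 were not called either. The CaMKII members Camk2a and Camk2b fell. Camk2d and Camk2g, CaMKII genes from the further lists described below, were not called between KO and flox hypoxia. Their log2 fold changes were 0.08 ± 0.08 (Camk2d, adjusted p 0.607, edgeR) and -0.09 ± 0.05 (Camk2g, adjusted p 0.376, edgeR). Camk2a lay at 3311, 3475 and 3397 CPM in flox and at 3119, 3059, 2858 and 3085 CPM in KO, apart in every library, with a log2 fold change of -0.16 ± 0.04 (adjusted p 0.012, edgeR). Camk2b, the beta subunit, which also binds actin, lay at 932, 968 and 946 CPM in flox and at 806, 884, 812 and 883 CPM in KO. Its libraries were apart too, at -0.16 ± 0.05 (adjusted p 0.0363, edgeR), and the log2 ratio of Camk2a to Camk2b was 1.84 in both groups.

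Of the adhesion genes 1 of 5 fell, and it was Nlgn2, the neuroligin of inhibitory synapses. Nlgn2 lay at 368, 377 and 376 CPM in flox hypoxia and at 324, 331, 339 and 310 CPM in KO hypoxia. A gap separated the groups, at -0.20 ± 0.04 with an adjusted p of 0.00536 (edgeR). Nlgn1, the neuroligin of excitatory synapses, showed no such gap: it lay at 87.5, 89.5 and 85.0 CPM in flox and at 88.5, 85.0, 87.7 and 86.3 CPM in KO (-0.01 ± 0.04, adjusted p 0.939, edgeR). Nrxn3, a presynaptic neurexin, was uncalled at -0.15 ± 0.05 (adjusted p 0.0835, edgeR), with 219, 233 and 224 CPM in flox and 210, 212, 202 and 189 CPM in KO, below flox in every library.

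Of the presynaptic genes, 3 of 16 fell. Rims1, which tethers vesicles and calcium channels at the active zone, lay at 254, 251 and 277 CPM in flox hypoxia and at 200, 214, 225 and 215 CPM in KO hypoxia. The KO libraries were all lower, at -0.29 ± 0.06 with an adjusted p of 0.00514 (edgeR). Unc13a, which primes docked vesicles for fusion, lay at 490, 498 and 497 CPM in flox and at 397, 437, 427 and 362 CPM in KO, at -0.29 ± 0.06 with an adjusted p of 0.00347 (edgeR). These were the lowest log2 fold changes of the 38, and the flox libraries of Unc13a were within a few CPM of each other. Cplx2, a complexin that binds assembled SNAREs, lay at 1577, 1603 and 1488 CPM in flox and at 1379, 1461, 1401 and 1380 CPM in KO, apart by a small margin, at -0.15 ± 0.04 (adjusted p 0.0289, edgeR). The giant active zone genes Bsn and Pclo had log2 fold changes of -0.24 ± 0.08 and -0.24 ± 0.09 and were not called (adjusted p 0.0834 and 0.124, edgeR). Bsn lay at 674, 724 and 764 CPM in flox and at 655, 670, 604 and 507 CPM in KO, low above all in KO hypoxia replicate 4. The vesicle and SNARE genes Syn1, Syn2, Syp, Snap25, Stx1a, Vamp2, Syt1, Sv2a and Cplx1 ranged from -0.12 to -0.05 and were not called. Of the glutamate transporters, Slc17a7 lay at -0.08 ± 0.04 and Slc17a6 at 0.01 ± 0.11, both uncalled, and the log2 ratio of Slc17a7 to Slc17a6 was 5.41 ± 0.04 (SD, n = 3) in flox and 5.33 ± 0.14 (SD, n = 4) in KO hypoxia.

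**Figure D3:**
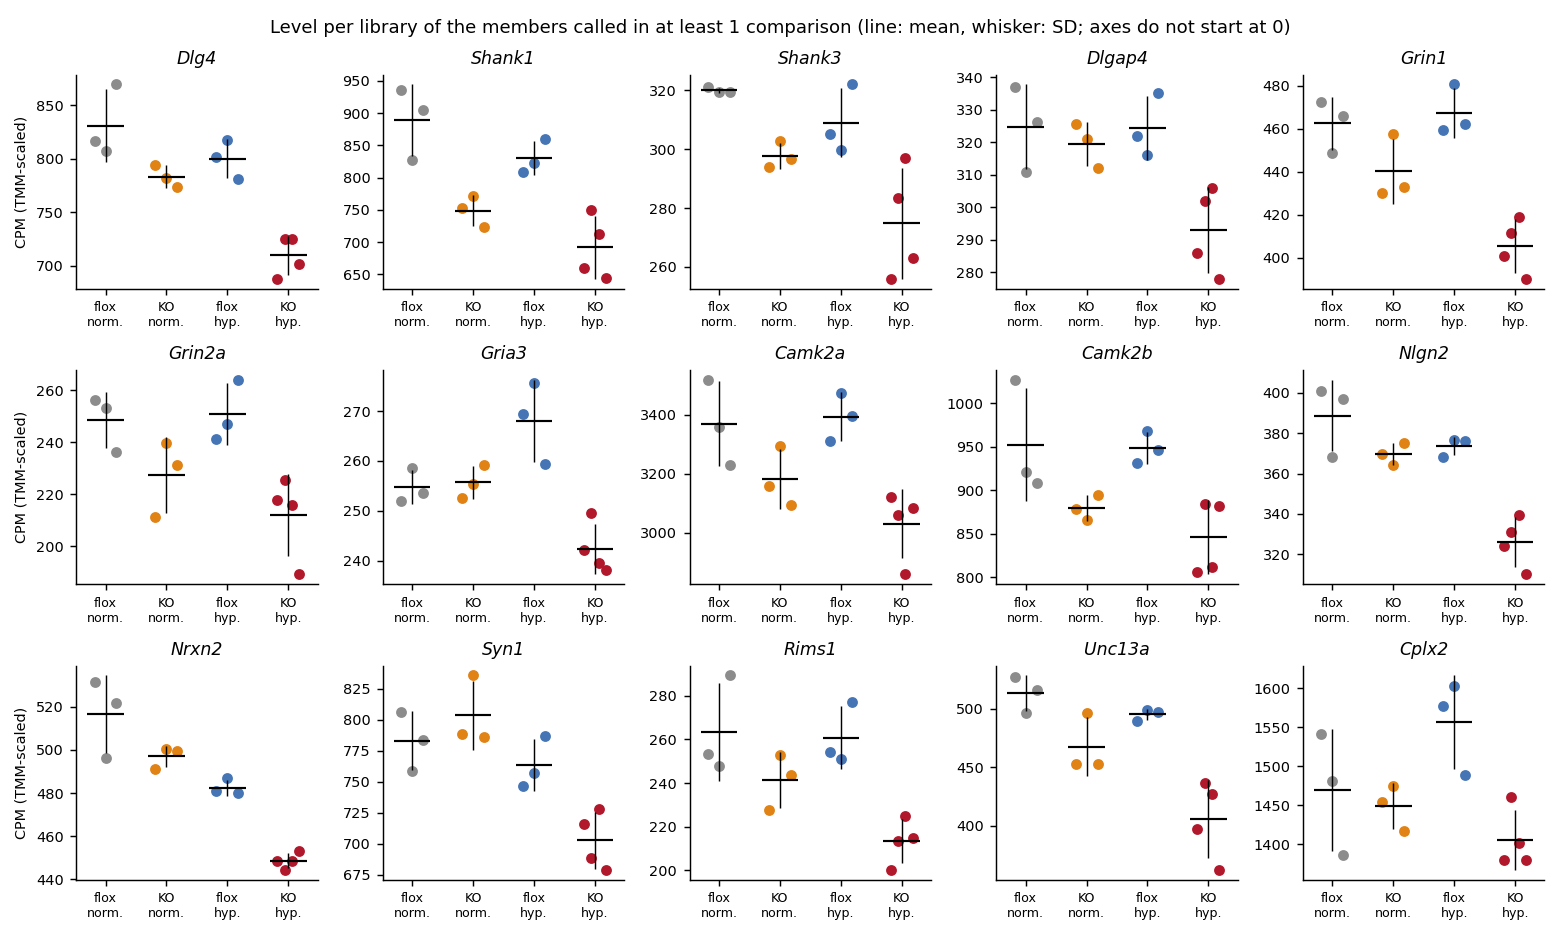
CPM per library (points; the axis of each panel has its own range and does not start at 0) of the 15 genes called in at least 1 comparison, with the group mean (line) and SD (whisker). In all 13 genes called in hypoxia the KO hypoxia libraries have the lowest mean of the 4 groups and lie below the flox hypoxia libraries. The panels of Nrxn2 and Syn1 show genes called only between the oxygen conditions in KO, where Nlgn2 was called as well.

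Of these 13 calls, Shank1, Rims1 and Unc13a held under all 12 alternatives to the processing and without each of the 7 libraries. Grin1 and Nlgn2 held in all but 1 alternative, the scaling to neuron markers described next, and without each library, and Dlg4 in all but 2. Dlgap4 held in 2 of 12 alternatives, Shank3 and Cplx2 in 4, Camk2b in 5, Camk2a in 7, and Grin2a and Gria3 in 8. The number called lower was 8, 6 and 9 without flox hypoxia replicates 1, 2 and 3, and 9, 18, 11 and 11 without KO hypoxia replicates 1 to 4, so leaving out KO hypoxia replicate 2 added calls and leaving out any other removed some. It was 7 with a sex term, in which Grin1, Dlg4, Shank1, Gria3, Nlgn2, Rims1 and Unc13a remained. Shank3, Dlgap4, Grin2a, Camk2a, Camk2b and Cplx2 were then not called (adjusted p 0.0558, 0.104, 0.0604, 0.0585, 0.0949 and 0.118, edgeR).

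Neuron markers moved with the members, but unevenly. Of 14 pan-neuron markers, 4 were lower in KO than in flox hypoxia (Map2, Nefl, Nefm and Elavl3) and 0 higher (edgeR), with a median log2 fold change of -0.09, and 0 of the 14 were at 0 counts. While 12 lay below 0, 2 lay above (Celf4 and Stmn2, both at 0.01), and Uchl1, Tubb3, Thy1 and Elavl4 lay between -0.04 and -0.0008. The summed level of the 14 was 5640.1 to 5719 CPM in flox hypoxia and 5238 to 5362 CPM in KO hypoxia. With libraries scaled to these markers, an alternative chosen after seeing the data, 3 members remained called lower (Shank1, Rims1 and Unc13a), the median of the 38 was -0.04 and 25 of them lay below 0, while the median of all genes moved to 0.09. Relative to the neuron markers, the mean log2 CPM of all 38 was 0.56 ± 0.03 (SD, n = 3) in flox hypoxia and 0.51 ± 0.05 (SD, n = 4) in KO hypoxia, and those ranges overlapped. Markers of vessel cells, reactive glia and blood were higher. The summed CPM of 12 endothelial markers was 228 to 249 in flox and 426 to 696 in KO hypoxia. That of 9 reactive astrocyte markers was 515 to 558 in flox and 1360 to 2062 in KO. That of 11 microglia and macrophage markers was 319 to 331 in flox and 409 to 580.0 in KO, and that of 6 erythroid markers 449 to 671 and 3409 to 17400. In that order, 12 of 12, 7 of 9, 10 of 11 and 6 of 6 were called higher (edgeR), and none was at 0. Markers of single neuron classes differed as well: 4 of 9 striatal and 2 of 10 cortical projection neuron markers were lower and 0 of 12 GABAergic markers were called, with summed levels of 428 to 673, 879 to 956 and 1415 to 1467 CPM in flox hypoxia and 340.0 to 484, 784 to 842 and 1344 to 1382 CPM in KO hypoxia. The striatal sum was 334 to 454 CPM in flox normoxia, where all 9 markers had lower means than in flox hypoxia (median log2 fold change of hypoxia against normoxia 0.59, with 0 called and 8 higher at an unadjusted p below 0.05, edgeR). Dentate granule neuron markers were lower in 1 of 6 (Dsp), with sums of 192 to 199 CPM in flox and 167 to 181 CPM in KO hypoxia. Thalamus markers pointed upward, with a median of 0.36, 6 of 8 above 0, 0 called and 3 higher at an unadjusted p below 0.05 (edgeR), and with overlapping sums of 162 to 230.2 CPM in flox and 195 to 252 CPM in KO hypoxia. The summed CPM of 10 immediate early genes, which neuronal activity and handling induce, was 2089 to 2240 in flox hypoxia and 802 to 1771 in KO hypoxia, with 0 of the 10 called and 0 at an unadjusted p below 0.05 (edgeR). In flox normoxia it was 670.3 to 2104, a range that holds that of KO hypoxia. The part of these cell types and activity genes in the members' differences was not tested.

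**Figure D4:**
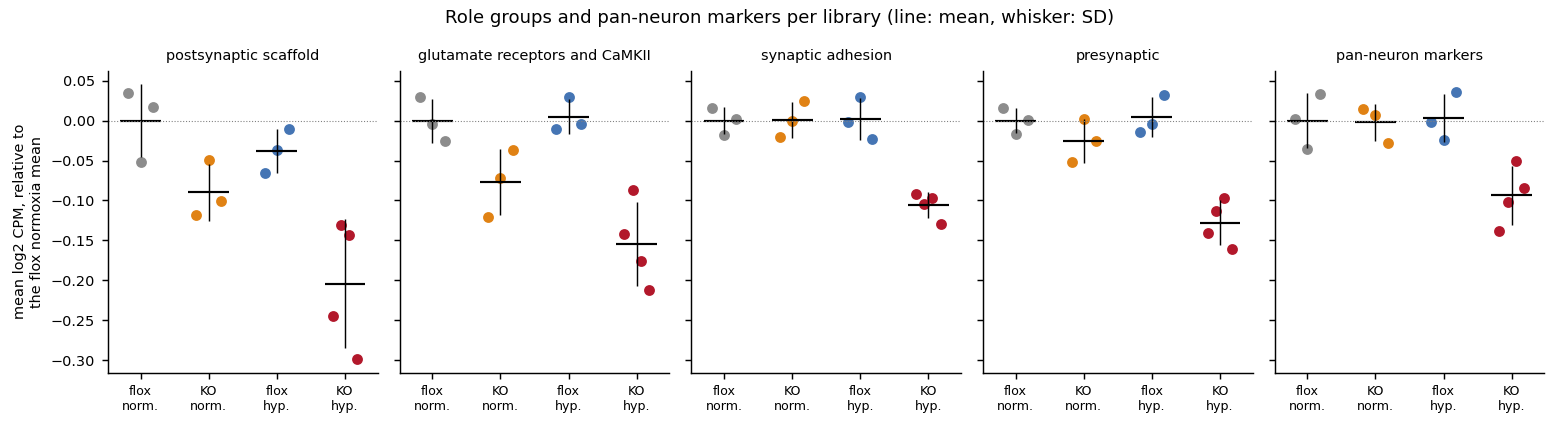
Mean log2 CPM of the genes of each role and of 14 pan-neuron markers in each library (points), relative to the flox normoxia mean, with group mean (line) and SD (whisker). KO hypoxia has the lowest mean in all 5 panels. In the scaffold and the receptor and CaMKII panels the KO normoxia mean is also below the flox normoxia mean, with overlapping libraries in the scaffold panel. The presynaptic panel shows a smaller such difference, with overlap.

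In normoxia, KO and flox differed in 1 of the 38 genes. Shank1 was lower in KO and 0 genes were higher (edgeR), against 0.369% of all genes called lower and 1.96% called higher. Shank1 lay at 935, 827 and 905 CPM in flox normoxia and at 753, 771 and 723 CPM in KO normoxia, with no overlap between the groups. The log2 fold change was -0.25 ± 0.06, with an adjusted p of 0.0323 (edgeR). This call was lost without flox normoxia replicate 1 or 3 (adjusted p 0.15 and 0.104, edgeR) or KO normoxia replicate 1, 2 or 3 (adjusted p 0.106, 0.0642 and 0.12, edgeR), and held without flox normoxia replicate 2. Its log2 fold change in those fits stayed between -0.30 and -0.21. It was not called by limma on the log2 RPKM. The log2 ratio of Shank1 to Shank3 was 1.47 ± 0.09 (SD, n = 3) in flox and 1.33 ± 0.04 (SD, n = 3) in KO normoxia, and 1.43 ± 0.03 (SD, n = 3) and 1.33 ± 0.07 (SD, n = 4) in hypoxia.

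The other members in normoxia were spread around a lower middle. The median of the 38 was -0.02 (-0.00357 over all genes), 30 lay below 0 against 51.1% of all genes, and at an unadjusted p below 0.05 there were 5 lower and 2 higher, against 5.74% and 7.83%. By role the medians were -0.09 for scaffold genes, -0.08 for receptors and CaMKII, -0.01 for adhesion and -0.01 for presynaptic genes. In 8 genes all KO libraries were below all flox libraries, against 8.70% of all genes, and in 1 (Nlgn1) all were above, against 10.5%. The largest uncalled difference of a scaffold gene was Shank2, with 283, 268 and 288 CPM in flox and 242, 266 and 262 CPM in KO (-0.12 ± 0.07, adjusted p 0.481, edgeR). Grin2b had 636, 676 and 704 CPM in flox and 522, 594 and 664 CPM in KO (-0.18 ± 0.09, adjusted p 0.43, edgeR), with overlap. Bsn had 826, 712 and 725 CPM in flox and 606, 693 and 678 CPM in KO (-0.20 ± 0.09, adjusted p 0.348, edgeR), without overlap. Nlgn1 pointed the other way, with 83.5, 84.3 and 80.1 CPM in flox and 85.1, 89.0 and 90.7 CPM in KO (0.10 ± 0.04, adjusted p 0.281, edgeR). Of the neuron markers, 0 of the 14 were called (edgeR; at an unadjusted p below 0.05, 1 was higher and 2 lower), and their summed level was 5626 to 5799 CPM in flox and 5578 to 5639 CPM in KO normoxia. Endothelial markers were already higher (159.9 to 179 CPM in flox and 331 to 367 CPM in KO normoxia, 11 of 12 called). The sum of the reactive astrocyte markers was higher too (550.4 to 604 and 1334 to 1475 CPM, 5 of 9 called higher). Of these 9, 7 lay above 0 and 2 below, Serpina3n at -0.78 and Lcn2 at -0.55 (adjusted p 0.349 and 0.914, edgeR). Of 6 dentate granule neuron markers, 3 were lower in KO (Prox1, C1ql2 and Dsp, at -0.63, -0.79 and -0.97) and 0 higher, with summed levels of 207 to 229 CPM in flox and 178 to 189.7 CPM in KO, without overlap. Of 11 oligodendrocyte lineage markers, 2 were called lower (Mag and Myrf) and 0 higher, with a list median of -0.30. While 7 of them lay below 0, 4 lay above (Olig1, Olig2, Pdgfra and Cspg4, from 0.007 to 0.15). The summed levels overlapped, with 4879 to 6440.1 CPM in flox and 4133 to 5056 CPM in KO. The part of these cell types in the Shank1 difference was not tested.

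Oxygen alone left the members of flox brains without a call. Between hypoxia and normoxia in flox, 0 of the 38 were lower and 0 higher by edgeR, DESeq2 and limma alike, against 0% of all genes called lower and 0.0222% called higher by edgeR. At an unadjusted p below 0.05 there were 2 lower (Nrxn2 and Syn2) and 1 higher (Snap25) by edgeR, against 2.95% and 3.70% of all genes. The median of the 38 was -0.01, and 21 lay below 0, against 50.6% of all genes. Snap25 lay at 1997, 1998 and 1788 CPM in flox normoxia and at 2117, 2104 and 2187 CPM in flox hypoxia, every hypoxia library above every normoxia library, at 0.15 ± 0.05 with an adjusted p of 0.548 (edgeR). Nrxn2 lay at 531, 496 and 522 CPM in normoxia and at 481, 487 and 480 CPM in hypoxia, below in every library, at -0.10 ± 0.04 with an adjusted p of 0.584 (edgeR). Shank1 (-0.10 ± 0.06, adjusted p 0.848, edgeR) and Gria3 (0.07 ± 0.04, adjusted p 0.795, edgeR) had the largest differences of their roles and were not called.

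Between hypoxia and normoxia in KO, 3 of the 38 were lower in hypoxia and 0 higher (edgeR), against 0.275% of all genes called lower and 0.622% called higher. Syn1, which ties vesicles to the presynaptic skeleton, lay at 788, 836 and 786 CPM in KO normoxia and at 716, 688, 728 and 679 CPM in KO hypoxia. Every hypoxia library was below every normoxia library, at -0.19 ± 0.04 with an adjusted p of 0.0308 (edgeR). Nlgn2 lay at 369.8, 364 and 375 CPM in KO normoxia and at 324, 331, 339 and 310 CPM in KO hypoxia, apart in the same way, at -0.18 ± 0.04 (adjusted p 0.0469, edgeR). Nrxn2, a neurexin that binds neuroligins from the presynaptic side, lay at 491, 500.4 and 499 CPM and at 449, 444, 449 and 453 CPM, the tightest of the 3 within groups, at -0.15 ± 0.03 (adjusted p 0.0469, edgeR). Of the 38, 37 lay below 0, against 47.5% of all genes and 67.9% of the abundant ones. Their median was -0.10, against 0.01 over all genes and -0.04 over the abundant ones. At an unadjusted p below 0.05, 18 were lower and 0 higher, against 6.28% and 7.98% of all genes, and in 15 the libraries did not overlap, against 6.04% of all genes.

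This comparison shares its KO hypoxia libraries with that of the genotypes in hypoxia. Its 3 calls were close to the threshold. Nlgn2 and Nrxn2 were lost without any 1 of the 7 libraries (adjusted p 0.0511 to 0.153 and 0.062 to 0.205, edgeR). Syn1 was lost without KO normoxia replicate 1, 2 or 3 (adjusted p 0.0849, 0.176 and 0.0867, edgeR) or KO hypoxia replicate 4 (adjusted p 0.0584, edgeR) and held without the others. The number called lower was 0 without each of the KO normoxia replicates, 1, 2, 1 and 0 without KO hypoxia replicates 1 to 4, 7 by DESeq2 and 0 by limma. Unc13a had the largest uncalled difference, with 453, 496 and 453 CPM in KO normoxia and 397, 437, 427 and 362 CPM in KO hypoxia, all lower (-0.20 ± 0.06, adjusted p 0.0967, edgeR). Shank2 (-0.15 ± 0.07, adjusted p 0.304, edgeR), Grin1 (-0.12 ± 0.04, adjusted p 0.155, edgeR) and Nlgn3 (-0.10 ± 0.05, adjusted p 0.376, edgeR) had those of their roles. Neuron markers moved here too: 1 of the 14 was called lower, with a median of -0.10, and with libraries scaled to them the median of the 38 was -0.01 and 0 were called (21 of 38 below 0). Other lists were higher in KO hypoxia than in KO normoxia: 6 of 12 endothelial markers (summed 331 to 367 CPM in normoxia and 426 to 696 CPM in hypoxia), 4 of 6 erythroid markers (974 to 1701 and 3409 to 17400 CPM) and 2 of 9 reactive astrocyte markers (1334 to 1475 and 1360 to 2062 CPM, overlapping) were called. So were 1 of 11 microglia and macrophage markers and 2 of 10 immediate early genes (median 0.87, with overlapping sums of 821 to 1052 and 802 to 1771 CPM). Their part in the members' differences was not tested.

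The difference between both genotype effects was tested itself. For this interaction of genotype and oxygen, 0 of the 38 genes and 0% of all genes passed by edgeR in either direction, and 0 of the 38 passed by DESeq2 and limma. At an unadjusted p below 0.05, 6 of the 38 were lower and 0 higher by edgeR, against 3.18% and 4.09% of all genes. So 13 calls in hypoxia against 1 in normoxia do not show that the genotype effect on any single member differed with oxygen. The interaction estimate was below 0 in 36 of the 38, against 48.5% of all genes and 67.3% of the abundant ones, with a median of -0.09 (-0.04 over the abundant genes), and the lowest p belonged to Snap25 (-0.24 ± 0.07, adjusted p 0.597, edgeR) and Syt1, the calcium sensor of release (-0.17 ± 0.05, adjusted p 0.597, edgeR). Snap25 lay at 2115, 2263 and 1944 CPM in KO normoxia and at 1971, 1963, 1977 and 2013 CPM in KO hypoxia, overlapping, beside the flox values given above. Shank1, the member called in both conditions, had an interaction of -0.02 ± 0.08 (adjusted p 0.978, edgeR). With libraries scaled to the neuron markers the median interaction was 0.00126, on the other side of 0.

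The members' fold changes went with gene length. Length here is the value that turns the deposited counts into RPKM, from 2.19 kb (Cplx1) to 24.8 kb (Grin2b). Spearman's rank correlation between length and log2 fold change, over 38 genes of the same libraries, was -0.41 in hypoxia and -0.47 in normoxia, and over the 5666 abundant genes it was -0.29 and -0.22. The 19 longer members had a median of -0.17 in hypoxia, with 8 called, and the 19 shorter a median of -0.10, with 5 called. In normoxia these medians were -0.09 and -0.01. The trend of level with length was taken over genes with a mean log2 CPM of at least 5. It was steepest downward in KO hypoxia replicate 4 (slope -0.07 log2 units per doubling of length) and in KO normoxia replicate 1 (-0.04). Those are also the libraries lowest for Grin2b, Bsn and Pclo in their groups. With a length trend removed from each library, an alternative chosen after seeing the data, 6 members were called lower in hypoxia with a median of -0.09, and Shank1 remained called in normoxia at -0.22 (adjusted p 0.0271, edgeR). RNA quality values per library were not given in the sources used here beyond an integrity number above 8.0 for all.

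**Figure D5:**
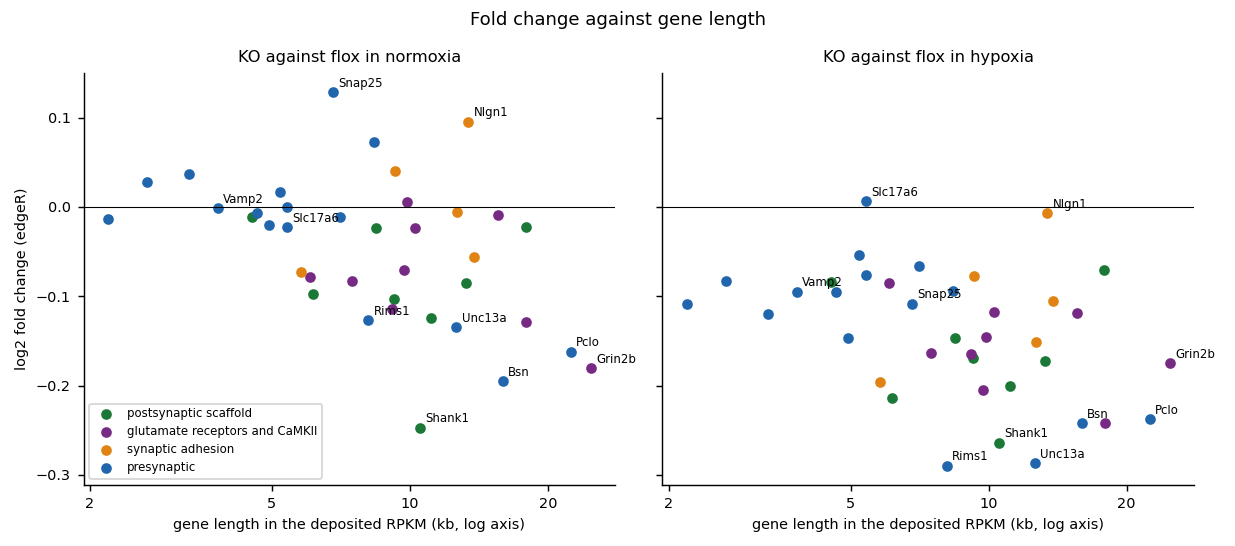
Log2 fold change (edgeR) between KO and flox, normoxia left and hypoxia right, for each of the 38 genes against its length in kb (log axis), coloured by role. Longer genes tend to lie lower in both panels (Spearman's rank correlation -0.47 and -0.41), while Rims1 (8.10 kb) and Unc13a (12.6 kb) are the lowest points in hypoxia.

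Other synaptic genes moved in the same direction. Of 114 further genes in 5 lists of the same roles, 24 were lower in KO than in flox hypoxia and 0 higher (edgeR), with a median of -0.12 and 111 below 0. Of all genes 2.28% were called lower, 6.78% were called higher and 52.1% lay below 0. Among the 5666 abundant genes 6.76% were called lower and 70.8% lay below 0, though some of the 114 are less abundant than these. By list the calls were 4 of 16 scaffold genes, 5 of 25 receptor and auxiliary genes, 4 of 13 kinase and signalling genes, 4 of 20 adhesion genes and 7 of 40 presynaptic genes. The genes named next are those of largest difference among the called ones, and uncalled genes with larger differences exist in each list but that of kinases, such as Homer3 (0.21 ± 0.08, adjusted p 0.113, edgeR). Among called scaffold genes the largest were Iqsec2, an exchange factor for ARF GTPases (-0.21 ± 0.05), Sipa1l1 (-0.20 ± 0.06) and Cnksr2 (-0.19 ± 0.06), with adjusted p of 0.0202, 0.0402 and 0.0494 (edgeR). Among called receptor genes they were the kainate receptor subunit Grik1 (-0.25 ± 0.07), the AMPA receptor auxiliary subunit Cacng8 (-0.20 ± 0.05) and the NMDA subunit Grin2c (-0.20 ± 0.06), with adjusted p of 0.0361, 0.0143 and 0.0443 (edgeR). Camkk2, a kinase that activates other CaM kinases (-0.26 ± 0.07), Kalrn, a signalling gene of dendritic spines (-0.19 ± 0.06), and Camkk1 (-0.17 ± 0.05) led the called signalling genes, with adjusted p of 0.0224, 0.0408 and 0.0391 (edgeR). The latrophilin genes Adgrl2 (-0.19 ± 0.05) and Adgrl1 (-0.18 ± 0.04) and the phosphatase gene Ptprs (-0.14 ± 0.04) led the called adhesion genes, with adjusted p of 0.0273, 0.00859 and 0.0439 (edgeR). Among called presynaptic genes they were Slc17a8, the VGLUT3 transporter (-0.43 ± 0.12), Cacna1a, the pore of the P/Q calcium channel that triggers release (-0.26 ± 0.06), and Syt7, a slow calcium sensor (-0.16 ± 0.03), with adjusted p of 0.029, 0.0117 and 0.00602 (edgeR). Slc17a8 had low levels, with means of 4.96 CPM in flox and 3.67 CPM in KO hypoxia.

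In the remaining comparisons these 114 genes gave few calls, as the members did. In normoxia 1 was lower in KO, Syt7 at -0.20 ± 0.04 (adjusted p 0.00694, edgeR), with means of 468 CPM in flox and 408 CPM in KO, and 0 were higher. Of all genes 0.369% were called lower there and 1.96% higher. At an unadjusted p below 0.05, 17 of the 114 were lower and 6 higher by edgeR, against 5.74% and 7.83% of all genes. Between hypoxia and normoxia in KO 1 was lower, Snap91, an endocytosis adaptor, at -0.14 ± 0.03 and an adjusted p of 0.0488 (edgeR), and 0 were higher. The shares of all genes were 0.275% lower and 0.622% higher. Even so, 104 of the 114 lay below 0 in this comparison, against 47.5% of all genes, with a median of -0.10. By edgeR 53 were lower and 1 higher at an unadjusted p below 0.05, against 6.28% and 7.98% of all genes. In flox 0 were called in either direction by edgeR. At an unadjusted p below 0.05, 9 were higher and 5 lower by edgeR, against 3.70% and 2.95% of all genes. The interaction called 0 of the 114 by edgeR. At the same unadjusted threshold 1 was higher and 26 lower by edgeR, against 4.09% and 3.18% of all genes.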

How the data were processed

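Brain mRNA of 13 mouse samples was sequenced. The authors deposited raw read counts per gene, and RPKM values that equal those counts divided by the library total and by 1 length per gene (relative range at most 9.8e-15 over 35248 genes), so they carry no composition factor. The submitters' processing notes name HISAT2, edgeR and GRCm39. No source used here gives the strand setting or the annotation, so reads of overlapping or near-identical genes could not be checked.

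Each sample's title gave its group and replicate number. In R 4.3.3, edgeR 4.0.16 tested the deposited counts: filterByExpr left 22507 genes (all 38 members among them), libraries were scaled by TMM, the fit took 1 mean for each group from all 13 libraries, and 5 contrasts were tested by quasi-likelihood with Benjamini-Hochberg adjustment at 0.05. CPM values are TMM-scaled, and log2 means use a prior count of 2. Levels of different genes are compared on the RPKM scale only. Alternatives were RLE scaling or no composition factor, no filter or a filter of 1 CPM in 3 or more libraries, DESeq2 (1.42.0), limma-trend (3.58.1) on log2 RPKM with a pseudocount of 1 or 0.1, a replicate block, a fit of only the libraries compared, a sex term and leaving out each library. Scaling to neuron markers and removal of a length trend were added after seeing the data. The edgeR step was tested on simulated data. No libraries of 1 group matched within sampling noise (chi-square per degree of freedom at least 4.44 over 15 pairs). Members and gene lists were chosen with earlier results of these data known, so none of them is independent support. Members called in any contrast are given per library, and of each role also the uncalled member of largest difference. Of the other lists up to 3 called genes are named.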

Additional observations from a re-analysis of the deposited data

Results flagged for a closer look

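The log2 ratio of Camk2a to Camk2b in KO hypoxia had 1 library far from the others: replicate 1 lay at 1.95, with the nearest library at 1.81 and the farthest at 1.79. It was the only such gap among 54 values examined in this way, and chance alone gives one in about 1 in 20. The ratio was 1.84 on average in both hypoxia groups.

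Gria3 differed between the oxygen conditions in opposite directions in the 2 genotypes, without a call in either. Every flox hypoxia library lay above every flox normoxia library (log2 fold change 0.07, adjusted p 0.795, edgeR), and every KO hypoxia library lay below every KO normoxia library (-0.08, adjusted p 0.323, edgeR). The test of the difference itself did not pass: the interaction was -0.1513, with an unadjusted p of 0.00953 and an adjusted p of 0.625 (edgeR).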

How the results depend on the processing

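No member was called higher in any comparison under any alternative run, and the log2 fold changes of called members kept their sign in all. In normoxia, the 1 gene called lower became 0 by limma with either pseudocount, and 0 to 1 without single libraries, with medians from -0.0515 to -0.00574 (reported -0.0229). In hypoxia, the 13 called lower became 8 with no composition factor (median -0.103; over all genes the split moved from 1526 higher and 513 lower to 1746 and 243), 7 by limma on log2(RPKM + 1) (-0.101) and 7 on log2(RPKM + 0.1) (-0.103). They became 8 with only the libraries compared, 7 with a sex term, 3 with scaling to neuron markers (-0.036), 6 with the length trend removed (-0.0874), and 6 to 18 without single libraries. By DESeq2 18 were lower. In KO between oxygen conditions, the 3 called lower became 1 with RLE scaling, 1 with no composition factor, 6 with no filter, 7 by DESeq2 and 0 by limma with either pseudocount (median -0.0724 with the pseudocount of 1). They became 0 with only the libraries compared, 1 with a sex term, 0 with scaling to neuron markers (-0.00701), 1 with the length trend removed (-0.0678) and 0 to 2 without single libraries. The median interaction, -0.0939 as reported, became -0.0673 with no composition factor, -0.0652 and -0.0679 by limma, 0.00126 with scaling to neuron markers and -0.0661 with the length trend removed. The cause of these moves was not tested.

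Replicate numbers did not pair the libraries: the correlation of deviations of same-numbered libraries ran from -0.0177 to 0.0881. With the replicate number as a block, 11 members were lower in hypoxia, 1 in normoxia and 0 in KO between oxygen conditions, where 3 had been. KO hypoxia replicate 4 has no partner and adds nothing to that fit. The interaction was not run with only the libraries compared, since it uses all 4 groups. The lowest count of any member in any library was 1642.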
